A study of Homo sapiens with 14 samples.

Results

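The genes described here are 9 members of the human end joining pathways, XRCC5, XRCC6, PRKDC, LIG4, XRCC4, NHEJ1, DCLRE1C, POLQ and RIF1. They were taken by gene symbol from guide count tables of 4 pooled CRISPR screens, and all 9 were found in each screen, among 19114 genes of the knockout library and 18886 genes of the activation library. In the knockout library each gene had 4 guides, so 36 guides in all. In the activation library XRCC4 had 2 guides and each of the others had 3, so 26 guides in all.

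The screens were made in RKO and SW620, both colorectal cancer cell lines. Cells carrying Cas9, which cuts DNA, received the Brunello knockout library, and cells carrying dCas9-VP64, a cutting-dead Cas9 fused to a transcriptional activator, received the Calabrese activation library. Every population was first selected with blasticidin for the Cas9 construct and with puromycin for the guide, controls included. The groups were RKO cells given 1.9 µM oxaliplatin until day 20, SW620 cells given 0.38 µM or 0.5 µM oxaliplatin until day 20, untreated cells of each line at day 20, and untreated cells of each line at day 0. Each group existed once with the knockout library and once with the activation library, which gave 14 sequencing libraries and 1 library per condition. With no replicates, no test between conditions could be made, and every difference below is between 2 libraries. The measurements are guide counts from genomic DNA, which carry no marker of cell identity, so the line labels could not be checked and the level of any transcript was not measured.

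Non-homologous end joining rejoins broken DNA ends without a template and works through most of the cell cycle. The ends are first bound by Ku, the ring formed by the products of XRCC5 and XRCC6, which recruits the kinase DNA-PKcs (PRKDC). DNA-PKcs activates the nuclease Artemis (DCLRE1C), which trims ends, and the ligase complex of LIG4, XRCC4 and XLF (NHEJ1) seals them. Polymerase theta (POLQ) drives a separate pathway that anneals short homologies, and RIF1 acts with 53BP1 to hold back the resection that would turn an end away from end joining. Oxaliplatin is a platinum drug that forms adducts and crosslinks on DNA.

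The activation screens act at promoters, so 3 promoter stretches are printed to show where dCas9-VP64 can be placed at these genes. They are the 150 bases just before the start of XRCC6, whose product is a Ku subunit, of XRCC4, the only one of the 9 genes with 2 activation guides, and of POLQ, which had the highest activation value among the 8 genes measured in RKO under drug. Sequences are from RefSeq, build GRCh38.p14, on the strand of the gene, and capitals mark the GG of each NGG, the motif next to which this Cas9 binds, on the printed strand.
XRCC6, chr22:41621145-41621294, plus strand: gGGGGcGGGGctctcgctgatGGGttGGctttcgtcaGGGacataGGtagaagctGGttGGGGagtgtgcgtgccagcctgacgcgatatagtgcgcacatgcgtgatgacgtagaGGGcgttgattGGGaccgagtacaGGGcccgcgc
XRCC4, chr5:83077397-83077546, plus strand: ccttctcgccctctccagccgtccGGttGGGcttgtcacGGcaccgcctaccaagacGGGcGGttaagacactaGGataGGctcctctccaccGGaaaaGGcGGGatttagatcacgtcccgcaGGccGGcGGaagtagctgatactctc
POLQ, chr3:121545989-121546138, minus strand: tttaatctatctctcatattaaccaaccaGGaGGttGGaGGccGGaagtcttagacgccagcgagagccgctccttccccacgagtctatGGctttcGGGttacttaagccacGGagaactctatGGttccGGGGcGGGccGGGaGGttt
Counted on both strands, with overlapping motifs each counted, NGG occurred 27 times in the XRCC6 stretch, 31 times in the XRCC4 stretch and 30 times in the POLQ stretch. The median over 35116 promoters of the same length was 30, and 99.99% of them held at least 1 such motif, and the 3 stretches lay between the 42.1 and 52.2 percentiles of that count. The table of promoters held 7 of the 9 genes. The guide sequences themselves were not in the files used here, so which of these positions the library uses is not shown.

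Several promoters face another gene. XRCC6 starts 252 bases from the oppositely oriented DESI1, and XRCC4 starts 153 bases from TMEM167A. LIG4 has several listed starts, and the most upstream of them lies 43 bases from ABHD13. Its other listed starts lie more than 1000 bases from that of ABHD13. At XRCC6, at XRCC4 and at the most upstream LIG4 start, a guide near that start also lies near the start of the neighbour.

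The libraries held between 3647823 counts (untreated SW620 cells with the activation library) and 69526489 counts (day 0 SW620 cells with the knockout library). Counts were scaled by median-ratio size factors. A gene value is the median over the guides of a gene of the log2 fold between 2 libraries, with a pseudocount of 5 on scaled counts, over guides with a mean scaled count of at least 20. A gene was counted as past the fold where its value reached 1 log2 unit in either direction. Some treated libraries were dominated by few guides. The most abundant 1% of guides held 41.4% of the counts in treated RKO cells with the knockout library, 31.5% in SW620 knockout cells at 0.5 µM and 52.8% in treated RKO cells with the activation library, against 2.16% to 3.88% in the untreated and day 0 libraries. In treated RKO cells with the activation library 14.3% of guides were at 0. Intervals and floors describe counting error alone, since amplified reads carry no identifier of the molecule they came from.

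Without drug, knockout of the Ku subunits, of XRCC4 and of 4 more end joining genes left lower guide counts in RKO cells after 20 days, and the Ku genes lay lowest. XRCC6 was at -4.67 and XRCC5 at -4.12 log2 units between untreated day 20 and day 0. XRCC4 was at -2.59, NHEJ1 at -1.64, PRKDC at -1.59, RIF1 at -1.46 and LIG4 at -1.03. DCLRE1C, at -0.64, and POLQ, at 0.06, did not reach the fold. Thus 7 of the 9 genes were at least 1 log2 unit lower, beside 11.6% of the 19077 genes measured, and 0 were higher, beside 0%. The median was -1.59 over the 9 genes and 0.09 over all genes.

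The 4 guides of XRCC5 held 15, 6, 15 and 12 counts in untreated RKO cells at day 20, against 293, 291, 221 and 378 counts at day 0 in the same guide order. The 4 guides of XRCC6 held 5, 17, 68 and 2 counts at day 20, against 1008, 484, 356 and 253 counts at day 0. For both Ku genes every guide was lower at day 20. The summed scaled count of XRCC5 was 0.0388 times the day 0 sum (95% counting interval 0.0284 to 0.0518), and that of XRCC6 was 0.0419 times the day 0 sum (0.0336 to 0.0516). As a yardstick, 10 ribosomal protein genes, which dividing cells need, had a median of -3.54 in the same comparison, and their values ran from -3.79 to -2.37. Both Ku genes lay below all 10 of them. The guides against olfactory receptor genes, which have no known role in these cells, had a median gene value of 0.17 over 374 genes, and the 990 non-targeting guides measured, which direct Cas9 to no site, had a median log2 fold of 0.51.

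PRKDC, the kinase that Ku recruits, had 201, 150, 390 and 272 counts in untreated RKO cells at day 20, against 622, 716, 917 and 757 counts at day 0. All 4 of its guides were lower at day 20. Artemis, which DNA-PKcs activates, was less affected. DCLRE1C had 465, 895, 201 and 58 counts at day 20, against 659, 851, 434 and 96 counts at day 0, and its guides ran from -1.15 to 0.01.

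Among the ligase genes, XRCC4, the scaffold of the ligase, had 85, 60, 15 and 211 counts in untreated RKO cells at day 20, against 495, 401, 162 and 238 counts at day 0. One of its guides stayed close to its day 0 level, at -0.23, and its lowest guide was at -3.01. NHEJ1 had 189, 150, 49 and 346 counts at day 20, against 938, 428, 173 and 753 counts at day 0, with every guide lower. LIG4, the catalytic subunit, split between its guides. It had 741, 147, 121 and 638 counts at day 20, against 893, 527, 396 and 617 counts at day 0, so 2 guides were clearly lower (down to -1.86) and the highest was at -0.02. The LIG4 value of -1.03 lay just past the fold and rests on that split.

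RIF1, the effector of 53BP1, had 444, 57, 29 and 151 counts in untreated RKO cells at day 20, against 748, 181, 184 and 365 counts at day 0. All 4 guides were lower, from -2.47 to -0.81. POLQ was the only member with a gene value above 0, at 0.06. It had 930, 166, 493 and 342 counts at day 20, against 707, 287, 482 and 294 counts at day 0, with guides on both sides of 0, from -0.83 to 0.33. Summed over its guides POLQ was at 1.04 times its day 0 sum (95% counting interval 0.977 to 1.11).

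**Figure D1:**
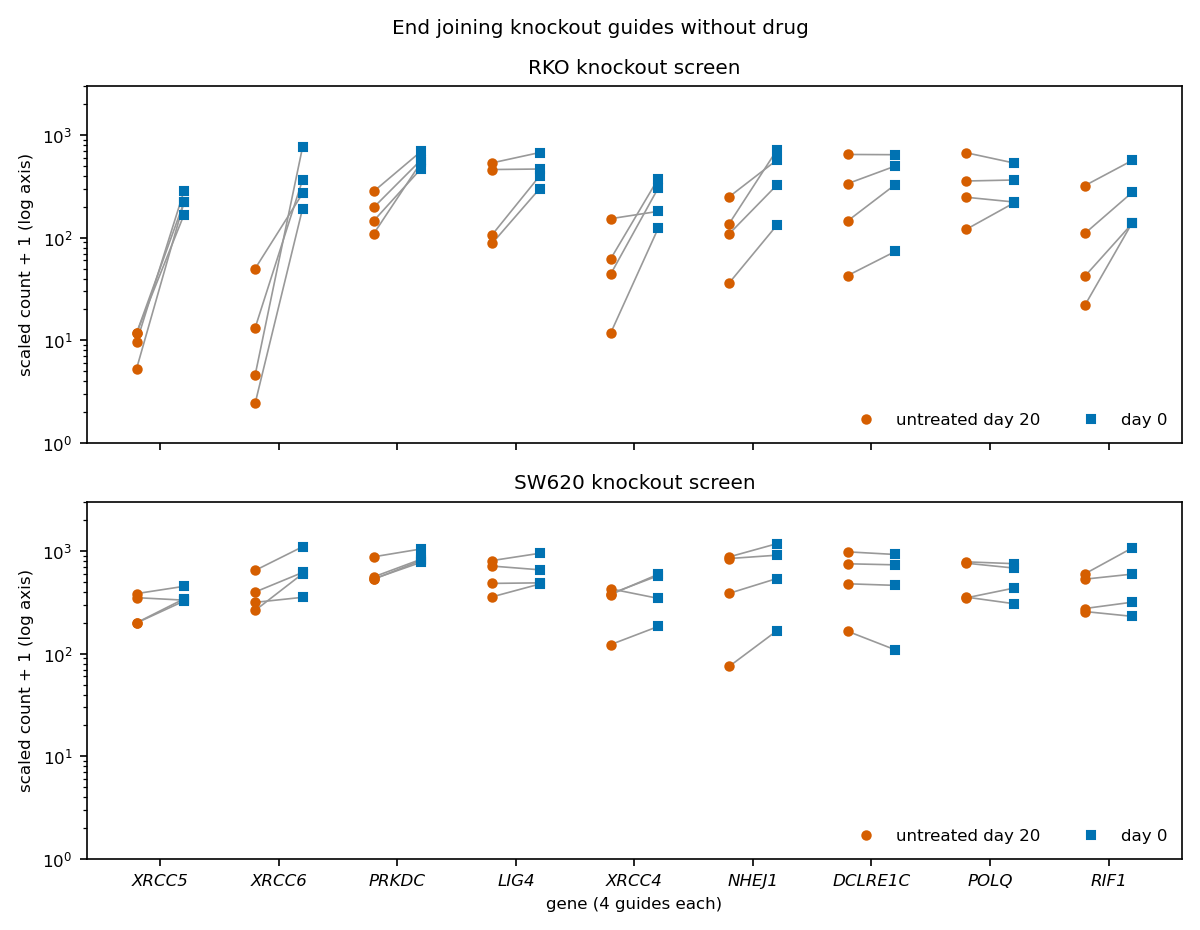
Scaled guide counts plus 1 (log axis) of the 9 end joining genes with the knockout library, with untreated day 20 (circles) left of day 0 (squares) and a line joining each guide, in RKO cells (top) and SW620 cells (bottom). The XRCC5 and XRCC6 guides lie far below their day 0 counts in RKO cells, at -4.12 and -4.67 log2 units, while in SW620 cells no gene value reached 1 log2 unit.

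In SW620 cells the same guides were also mostly lower after 20 days without drug, by smaller amounts. XRCC6 was at -0.69, XRCC4 at -0.58, PRKDC at -0.55, XRCC5 at -0.46 and NHEJ1 at -0.45 log2 units between untreated day 20 and day 0. RIF1 was at -0.18, LIG4 at -0.13, DCLRE1C at 0.07 and POLQ at 0.11. None of the 9 genes was past the fold, with 0 lower beside 1.2% of 19100 genes and 0 higher beside 0%. The range of folds was narrow in this screen as a whole. The ribosomal protein genes had a median of -0.90, against -3.54 in RKO cells, and 4 of these 10 genes were past the fold.

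Ranks allow the lines to be read side by side on this narrower range. In SW620 cells XRCC6 stood at percentile 3.23 of all genes counted from the lowest, XRCC4 at 4.80, PRKDC at 5.19, XRCC5 at 6.85 and NHEJ1 at 7.24. In RKO cells XRCC6 stood at percentile 0.487, XRCC5 at 1.39, XRCC4 at 5.44, NHEJ1 at 8.54 and PRKDC at 8.75. These 5 genes were thus near the low end in both lines, and of them only the Ku genes had a higher percentile in SW620 cells. Relative to the yardstick the Ku genes also differed. In SW620 cells 7 of the 10 ribosomal protein genes lay below XRCC6 and 9 lay below XRCC5, whereas in RKO cells none did.

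The XRCC5 guides held 244, 243, 429 and 470 counts in untreated SW620 cells at day 20, against 624, 594, 606 and 827 counts at day 0. The XRCC6 guides held 791, 487, 322 and 386 counts at day 20, against 2011, 1129, 1097 and 646 counts at day 0. Part of this gap is depth, since the day 0 library was deeper. After scaling, XRCC5 summed to 0.781 times its day 0 level (95% counting interval 0.732 to 0.834) and XRCC6 to 0.608 times its day 0 level (0.577 to 0.640).

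Subtracting the SW620 fold from the RKO fold guide by guide gave -4.28 for XRCC6, -3.71 for XRCC5, -1.98 for XRCC4, -1.28 for RIF1, -1.06 for PRKDC and -1.06 for NHEJ1. DCLRE1C was at -0.90, LIG4 at -0.72 and POLQ at 0.04. In this difference 6 of the 9 genes were at least 1 log2 unit lower in RKO cells, beside 10.3% of 19076 genes, and 0 were higher, beside 0.126%. All 4 guides of both Ku genes lay below the 5th percentile of the non-targeting guides. The ribosomal protein genes had a median difference of -2.19, from -3.46 to -0.91, and XRCC6 and XRCC5 lay below all 10 of them. How much of the members' difference goes with the smaller folds of the SW620 screen was not tested.

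**Figure D2:**
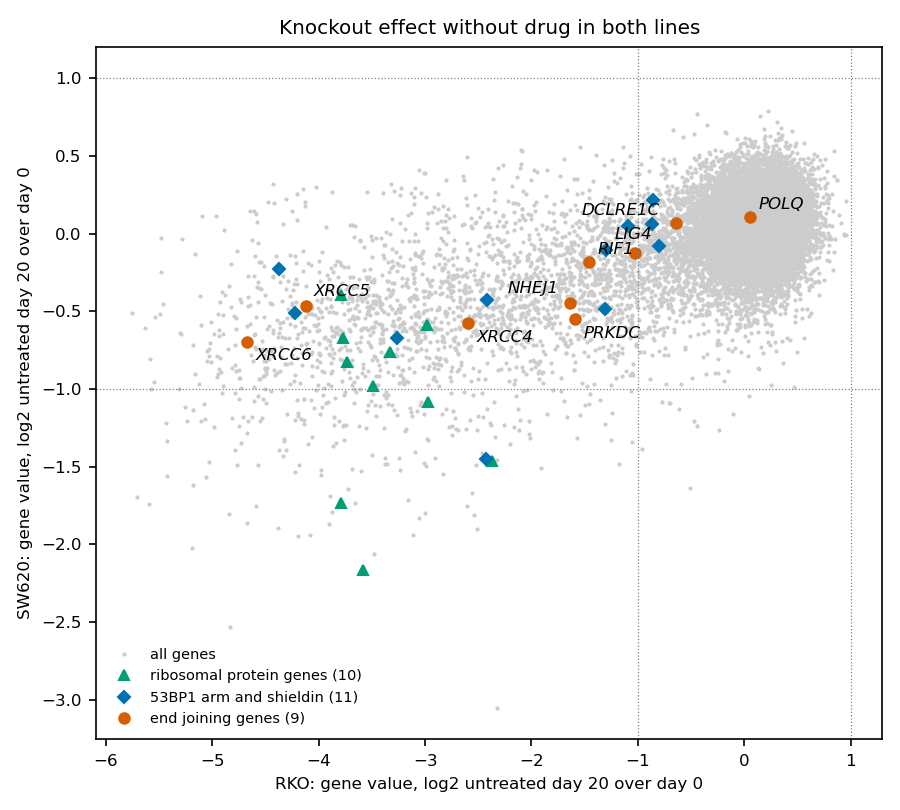
Gene values (log2 untreated day 20 over day 0) with the knockout library in RKO cells (horizontal) and SW620 cells (vertical), for all genes (grey), 10 ribosomal protein genes, 11 genes of the 53BP1 arm and shieldin, and the 9 end joining genes, with dotted lines at 1 log2 unit. XRCC6 and XRCC5 lie left of the ribosomal protein genes, at -4.67 and -4.12 in RKO cells, but above most of them on the SW620 axis.

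The other genes of the pathway were read from lists. The list of the 53BP1 arm and shieldin, which shield ends from resection, had 11 of 12 genes in the knockout library. In untreated RKO cells 8 of these 11 were past the fold, all lower, beside 11.6% of all genes, and all 11 were below 0, with a median of -1.31 beside 0.09 over all genes. TEN1, a subunit of the CST complex that fills in ends at shieldin, was at -4.38, and MAD2L2, the REV7 subunit of shieldin, was at -2.43. In untreated SW620 cells 1 of the 11 was lower, beside 1.2% of all genes, MAD2L2 at -1.45, with a list median of -0.23. CST also maintains telomeres and MAD2L2 also serves translesion synthesis, so the list is not specific to end joining.

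Of 9 accessory end joining genes 2 were lower in untreated RKO cells, beside 11.6% of all genes, with a list median of 0.00. One of them was TDP2, which frees ends from trapped topoisomerase, at -2.49. Among 7 genes of alternative end joining, 2 were lower in untreated RKO cells, beside 11.6% of all genes. They were LIG3, the ligase of mitochondria and of this pathway, at -2.73 and FEN1, a flap nuclease of replication, at -2.79. FEN1 was chosen after its values were seen. The list median was -0.51, and no gene of the list was past the fold in untreated SW620 cells. The kinase ATM, from a list of 3 break signalling genes, was at -2.51 in RKO cells and at -0.48 in SW620 cells.

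The genes most like each member were found by the distance between their values in the 5 day 20 knockout libraries, each against day 0 of its screen, among 19072 genes. The genes nearest to XRCC5 were DCTN5 at a Euclidean distance of 0.426, SPC25 at 0.441 and TARDBP at 0.495 log2 units. Those nearest to XRCC6 were MCM7 at 0.489, MRPL39 at 0.494 and GLRX5 at 0.525. PRKDC lay nearest to STIL at 0.403, EMC2 at 0.422 and GTF3C4 at 0.515, and XRCC4 to RPIA at 0.416, C3orf17 at 0.434 and NOP9 at 0.465. NHEJ1 lay nearest to RTF1 at 0.379, TUBG1 at 0.501 and TNPO3 at 0.506. DCLRE1C lay nearest to SPTSSA at 0.348, HIST1H2AK at 0.381 and C20orf196 at 0.383, the last of which, now named SHLD1, is a shieldin subunit. RIF1 lay nearest to NBPF14 at 0.322, TUBB4B at 0.335 and INTS8 at 0.356. None of the 9 genes was among the 3 nearest to another. LIG4 and POLQ were left out, because they lay within 2 log2 units of 0 by the same distance.

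Under 1.9 µM oxaliplatin the Ku genes had higher scaled guide counts in RKO knockout cells than in the untreated day 20 library, and no other member was past the fold. XRCC6 was at 2.72 and XRCC5 at 2.64 log2 units between treated and untreated cells. PRKDC was lowest at -0.85, then DCLRE1C at -0.35, RIF1 at -0.13, NHEJ1 at -0.11, POLQ at -0.10, XRCC4 at -0.05 and LIG4 at 0.37. So 0 of the 9 genes were lower, beside 7.9% of 18441 genes, and 2 were higher, beside 11.3%. The 2 higher genes are the Ku genes, which met the count minimum through the treated library, so this count is no result about the members.

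The XRCC5 guides held 4, 29, 66 and 33 counts in treated RKO cells, against 15, 6, 15 and 12 counts in untreated cells at day 20. The XRCC6 guides held 63, 59, 27 and 7 counts in treated cells, against 5, 17, 68 and 2 counts in untreated cells. Each count was worth 1.84 scaled counts in the treated library and 0.721 in the untreated one. In scaled counts 3 XRCC5 guides were higher and 1 lower in treated cells, and of the XRCC6 guides 3 were clearly higher and the best filled was level, at 0.02. The lower XRCC5 guide, with 4 treated counts, and the XRCC6 guide with 7 treated counts missed the count minimum. Neither is in the gene value. No XRCC5 guide and 1 XRCC6 guide reached a scaled count of 20 in untreated cells, so both genes entered this comparison through the treated library, and guides that enter this way had to be higher there. With a count minimum on the untreated library neither gene has a value. The summed ratio was 7.01 for XRCC5 (95% counting interval 5.00 to 9.97) and 4.32 for XRCC6 (3.32 to 5.65).

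Set against day 0, the Ku genes were low in treated RKO cells too. XRCC6 was at -2.49 and XRCC5 at -2.04 in treated cells, against -4.67 and -4.12 in untreated cells. PRKDC was at -2.34 in treated cells and -1.59 in untreated cells, XRCC4 at -2.32 and -2.59, RIF1 at -2.03 and -1.46, and NHEJ1 at -1.98 and -1.64. DCLRE1C was at -1.20 in treated cells and -0.64 in untreated cells, LIG4 at -0.32 and -1.03, and POLQ at -0.25 and 0.06. Against day 0, 7 of the 9 genes were lower in treated cells, beside 16.9% of 19080 genes, and 0 were higher, beside 9.61%. These comparisons share libraries, the day 0 one or the untreated one, and are not independent of each other.

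The shift of the Ku genes toward 0 was shared by the ribosomal protein genes. Their median was -2.18 in treated cells against day 0, against -3.54 in untreated cells against day 0. In treated cells 2 of the 10 lay below XRCC6 and 8 lay below XRCC5. Only 1 of the 10 kept enough guides for a direct comparison of treated with untreated cells, and it was at 0.72. How far growth over the 20 days differed between treated and untreated cells was not measured here, and its part in the Ku values was not tested.

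**Figure D3:**
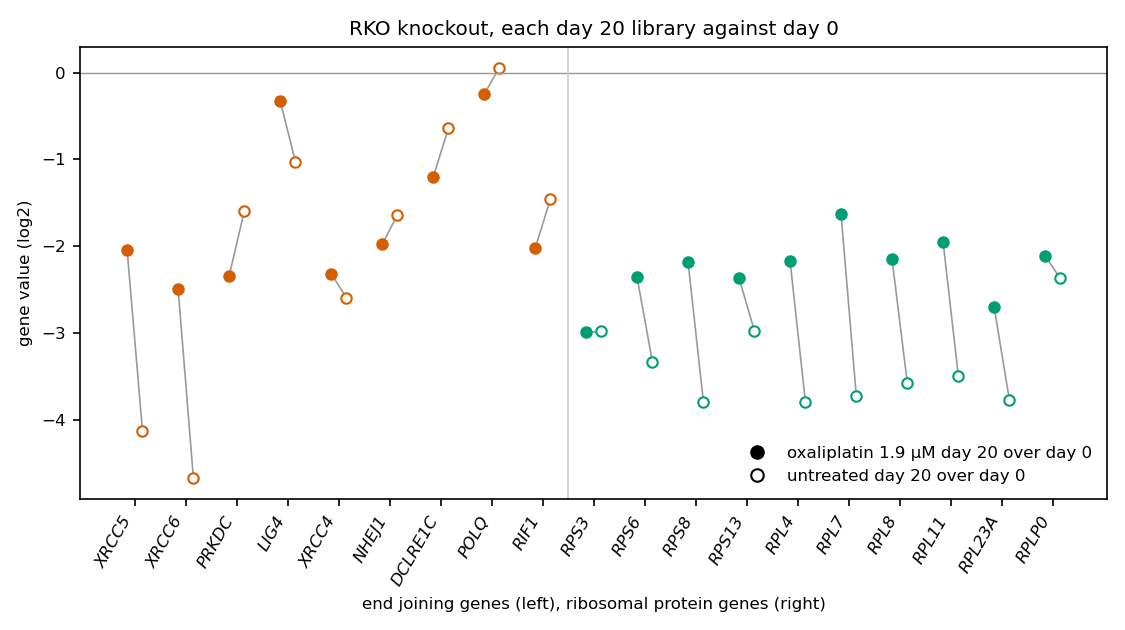
Gene values (log2, knockout library, RKO) against day 0 for cells given 1.9 µM oxaliplatin (filled, left of each pair) and untreated cells at day 20 (open), for the 9 end joining genes (left) and 10 ribosomal protein genes (right). XRCC5, XRCC6 and most ribosomal protein genes lie closer to 0 in treated cells, while PRKDC, NHEJ1, DCLRE1C, POLQ and RIF1 lie lower.

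PRKDC had 77, 31, 72 and 59 counts in treated cells, against 201, 150, 390 and 272 counts in untreated cells, with all 4 guides below 0 after scaling, from -1.06 to -0.03. Its summed ratio was 0.601 (95% counting interval 0.520 to 0.693). XRCC4 summed to 1.01 times (0.829 to 1.23) and NHEJ1 to 1.15 times (1.01 to 1.31) the untreated level. The LIG4 guides ran from 0.00 to 1.37 and the DCLRE1C guides from -3.23 to -0.18, with 1 DCLRE1C guide at 0 counts in treated cells, against 58 counts in untreated cells. Of the members' guides, 1 each of DCLRE1C, POLQ and RIF1 lay below the 5th percentile of the non-targeting guides.

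Among the pathway lists, TP53BP1, the gene of 53BP1, was at 2.94 in treated over untreated RKO cells and at -0.80 in untreated cells against day 0. TEN1 was at 1.85, TDP2 at 2.10 and ATM at 1.20 in treated over untreated cells. These genes were past the fold and lower in untreated cells against day 0. Their values thus start from low untreated levels, as those of the Ku genes do. DYNLL1, a dynein light chain that binds 53BP1, was at -1.86 and RHNO1, a 9-1-1 partner that also serves polymerase theta repair, at -1.73. H2AFX, which encodes the histone phosphorylated at breaks, was at -1.34. Of the 3 break signalling genes 1 was higher and 1 lower, beside 11.3% and 7.9% of all genes. Against day 0 all 3 were lower in treated cells, beside 16.9%. Of the 10 measured genes of the 53BP1 arm and shieldin 2 were higher and 1 was lower, beside 11.3% and 7.9% of all genes, with a median of 0.58 beside 0.03 over all genes. Against day 0, 9 of the 11 genes were lower in treated cells, beside 16.9% of all genes. TP53BP1 was the 1 gene that was higher, at 2.04, beside 9.61% of all genes.

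In SW620 cells at 0.38 µM, knockout of NHEJ1 alone was past the fold, at -1.07. XRCC4 was at -0.64, DCLRE1C at -0.61, RIF1 at -0.11, POLQ at 0.00, XRCC5 at 0.06, PRKDC at 0.28, LIG4 at 0.34 and XRCC6 at 0.53. This made 1 of 9 genes lower, beside 8.57% of 19093 genes, and 0 higher, beside 4.98%. These counts lay near those shares, so they are no result about the members. The 10 ribosomal protein genes had a median of -1.10 in this comparison, and 6 of them lay below NHEJ1. The NHEJ1 guides held 426, 234, 228 and 424 counts at 0.38 µM, against 1072, 473, 91 and 1033 counts in untreated cells. Of these, 3 were lower and the guide with the fewest untreated counts was higher, at 1.33.

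At 0.5 µM the members lay further apart, and so did their guides. XRCC5 was at -2.44 and NHEJ1 at -1.24, while XRCC4 was at 2.33, DCLRE1C at 1.69 and POLQ at 1.52. RIF1 was at -0.42, XRCC6 at -0.23, PRKDC at -0.13 and LIG4 at 0.18. Hence 2 of 9 genes were lower, beside 30.4% of 19091 genes, and 3 were higher, beside 25.1%. Both counts of members lay near those shares, so they are no result about the members. The ribosomal protein genes had a median of -0.84 at this dose, with 5 of 10 lower.

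At 0.5 µM 1 guide carried most of the counts of every member but POLQ. The share of the top guide ran from 52.7% for XRCC6 and 53.7% for DCLRE1C to 97.3% for XRCC5, and was 41.8% for POLQ. The XRCC5 guides held 18, 1380, 16 and 4 counts, against 244, 243, 429 and 470 counts in untreated SW620 cells, so 1 guide held 97.3% of the gene's counts and the other guides were lower. The XRCC4 guides held 1010, 530, 6 and 4508 counts at 0.5 µM, against 460, 468, 149 and 523 counts in untreated cells, with folds from -2.61 to 4.78. The PRKDC guides held 21, 103, 547 and 2455 counts, against 684, 655, 1074 and 648 counts in untreated cells, and ranged from -3.23 to 3.60. The non-targeting guides spread as widely there, with 5th and 95th percentiles of -2.68 and 3.63. Of the 36 guides only 2 of XRCC5 and 1 each of PRKDC and RIF1 lay below that range, and 1 each of XRCC5 and XRCC4 lay above it.

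The 2 SW620 doses share their untreated library. NHEJ1 was past the fold and lower at both, at -1.07 and at -1.24, but its guides did not go the same way. Its guides held 1320, 22, 9 and 158 counts at 0.5 µM, against 1072, 473, 91 and 1033 counts in untreated cells. The guide with 1320 counts held 87.5% of the gene's counts and was higher after scaling, while the others were lower. At 0.38 µM a different guide was the higher one. XRCC4 was at -0.64 at 0.38 µM and at 2.33 at 0.5 µM, and DCLRE1C was at -0.61 and at 1.69, so these genes had opposite signs at the 2 doses. In the direct comparison of 0.5 µM with 0.38 µM XRCC4 was at 2.99, DCLRE1C at 1.92, POLQ at 1.27 and XRCC5 at -1.60, with the other 5 genes between -0.76 and -0.16.

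The RKO and SW620 doses differ, so their values stand side by side only. XRCC5 was at 2.64 in RKO cells at 1.9 µM, and in SW620 cells at 0.06 at 0.38 µM and at -2.44 at 0.5 µM. XRCC6 was at 2.72 in RKO cells at 1.9 µM, and in SW620 cells at 0.53 at 0.38 µM and at -0.23 at 0.5 µM. In RKO cells 3 guides of each gene reached 20 scaled counts in the treated library, against 0 XRCC5 guides and 1 XRCC6 guide in the untreated library. No member was past the fold in the same direction in both lines.

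**Figure D4:**
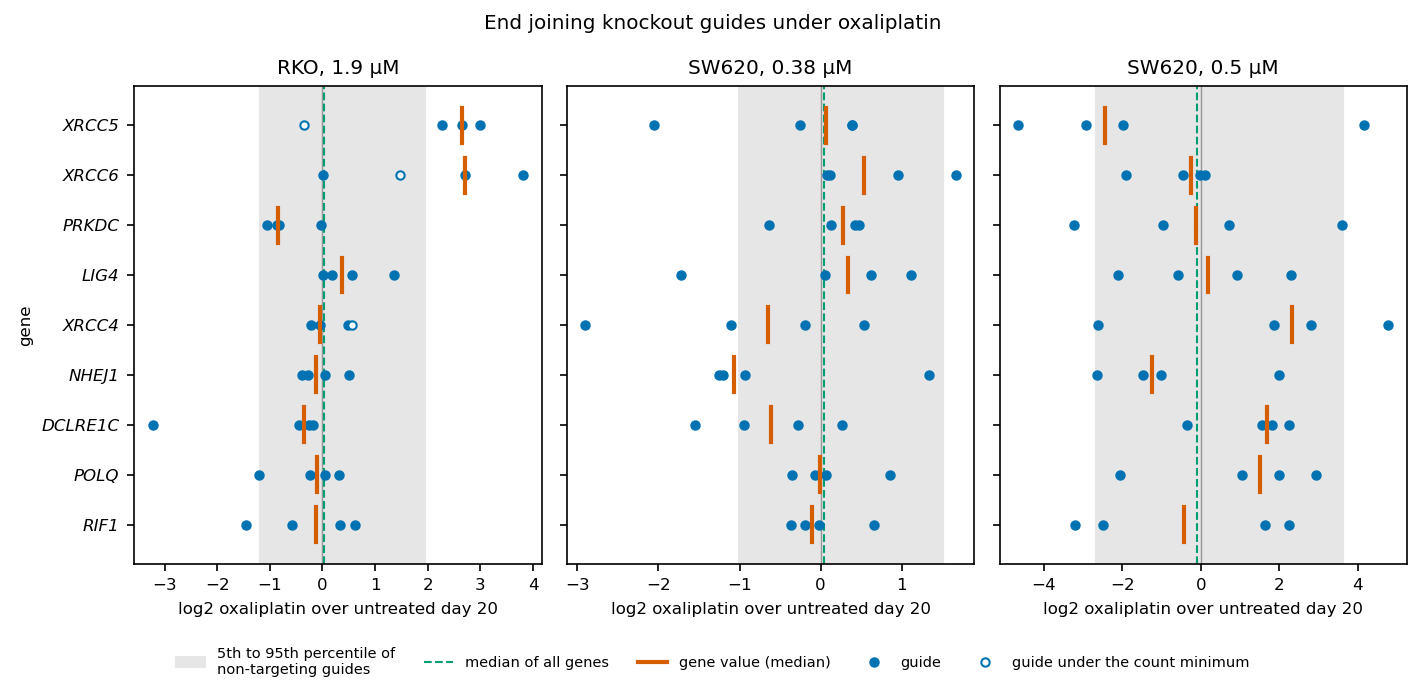
Log2 folds of oxaliplatin over untreated day 20 with the knockout library for each guide (points, open where under the count minimum) of the 9 end joining genes, with the gene value (bar), the median of all genes (dashed) and non-targeting guides between their 5th and 95th percentiles (grey). The Ku gene values lie at 2.64 and 2.72 in RKO cells, from guides with few untreated counts, and at 0.5 µM in SW620 cells the guides of single genes scatter over the whole band.

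In SW620 cells some genes of the other lists had values beyond those of the members at the same dose, and others lay within them. Over all genes the 5th and 95th percentiles were -1.27 and 1.00 at 0.38 µM, and -2.63 and 2.33 at 0.5 µM. The ribosomal protein genes ran from -2.81 to 0.41 at 0.38 µM and from -2.67 to 0.90 at 0.5 µM. LIG1, the replicative ligase, was at -3.00 at 0.38 µM and at -1.45 at 0.5 µM, and LIG3 was at -2.13 at 0.38 µM and at -1.64 at 0.5 µM. RHNO1 was at 1.30 at 0.38 µM and at 2.67 at 0.5 µM. TP53BP1 was at 0.85 at 0.38 µM and at 2.75 at 0.5 µM. H2AFX was at 0.47 at 0.38 µM and at -3.84 at 0.5 µM, and ATM was at 1.33 at 0.5 µM. MAD2L2 was at -0.81 at 0.38 µM and at -2.19 at 0.5 µM, DYNLL1 at 0.23 and at -2.65, and TEN1 at -0.90 and at 1.26. The list genes named under drug with the knockout library, except MAD2L2, were picked by these values. Each was past the fold the same way in 2 or more of the 3 comparisons, so that agreement was fixed by the choice. By list, the 53BP1 arm and shieldin had 0 lower and 0 higher of 11 at 0.38 µM, and 4 lower and 6 higher at 0.5 µM. The accessory genes had 0 lower and 0 higher of 9 at 0.38 µM, and 5 lower and 1 higher at 0.5 µM. The alternative end joining genes had 2 lower and 2 higher of 7 at 0.38 µM, and 4 lower and 2 higher at 0.5 µM. The break signalling genes had 0 lower and 0 higher of 3 at 0.38 µM, and 1 lower and 1 higher at 0.5 µM. Of all genes, 8.57% were lower and 4.98% higher at 0.38 µM, and 30.4% were lower and 25.1% higher at 0.5 µM.

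With the activation library and no drug no member was past the fold. XRCC4 had no gene value, since 1 of its 2 guides held 50 counts in RKO cells and 30 in SW620 cells at day 0 and missed the count minimum, so 8 of the 9 genes were measured. In RKO cells their values ran from -0.48 for RIF1 to 0.53 for XRCC5, with 0 of 8 lower beside 0.724% of 18777 genes and 0 higher beside 0%. In SW620 cells they ran from -0.08 for LIG4 to 0.35 for DCLRE1C, with 0 of 8 lower beside 0.389% and 0 higher beside 0%. For the Ku genes in RKO cells, XRCC6 was at 0.08 with the activation library and at -4.67 with the knockout library, and XRCC5 was at 0.53 and at -4.12.

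Under 1.9 µM oxaliplatin the RKO activation library was sparse and uneven. All genes had a median of -0.80 there and the non-targeting guides a median of 2.25, so a value near 0 is not a neutral one. POLQ was at 2.28, with every guide higher, and it was the only member past the fold in that direction, beside 25.9% of 18763 genes. XRCC5 was at -1.65, PRKDC at -1.35 and NHEJ1 at -1.13, which made 3 of 8 genes lower, beside 47.2%. The others were XRCC6 at -0.70, DCLRE1C at -0.26, LIG4 at -0.02 and RIF1 at -0.01. The POLQ guides held 284, 182 and 569 counts in treated cells, against 1045, 528 and 214 counts in untreated cells, and 1 count was worth 7.15 scaled counts in the treated library against 0.502 in the untreated one. The POLQ value lay beside the median of the non-targeting guides, 2.25.

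The PRKDC activation guides held 7, 1 and 10 counts in treated RKO cells, against 270, 469 and 330 counts in untreated cells. The XRCC5 activation guides held 4, 417 and 29 counts in treated cells, against 633, 1160 and 1317 counts in untreated cells. All 3 PRKDC guides were lower after scaling, while the XRCC5 guides ran from -3.26 to 2.35. No member guide lay above the 95th percentile of the non-targeting guides in this comparison. Of the 26 member guides 3 were at 0 counts, which allows up to 21.5 scaled counts each.

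In SW620 cells the activation values stayed closer to 0. At 0.38 µM they ran from -0.81 for RIF1 and -0.73 for XRCC5 to 0.45 for XRCC6, with 0 of 8 lower beside 10.8% of 18767 genes and 0 higher beside 8.8%. At 0.5 µM DCLRE1C was at -1.68 and PRKDC at -1.10, which made 2 of 8 lower, beside 15.2% of 18763 genes, and 0 were higher, beside 12.4%. XRCC5 was at 0.93 and XRCC6 at 0.86 at 0.5 µM. The DCLRE1C guides held 300, 17 and 64 counts at 0.5 µM, against 76, 61 and 95 counts in untreated cells. The untreated library was the shallowest of the series, and 1 count in it was worth 2.97 scaled counts. No member was past the fold in the same direction at both SW620 doses.

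**Figure D5:**
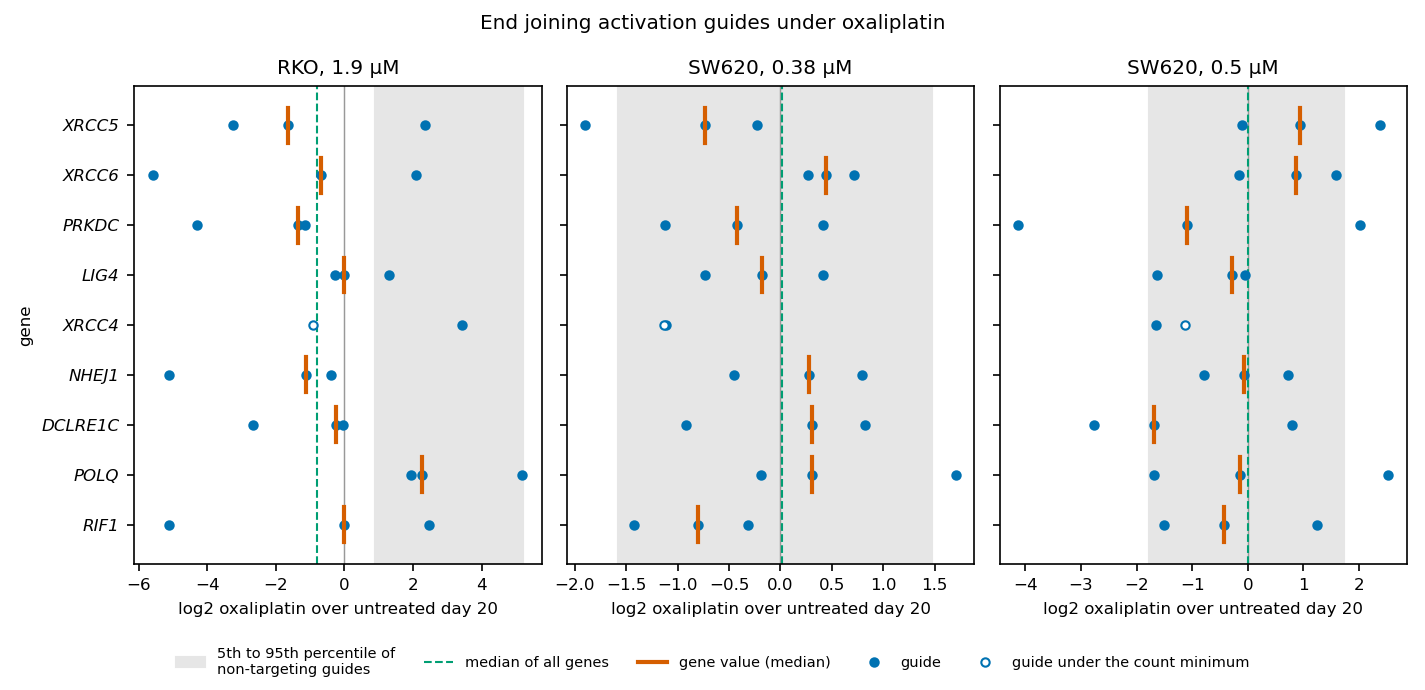
Log2 folds of oxaliplatin over untreated day 20 with the activation library for each guide (points, open where under the count minimum) of the 9 end joining genes, with the gene value (bar), the median of all genes (dashed) and non-targeting guides between their 5th and 95th percentiles (grey). In RKO cells the non-targeting band lies right of 0 and the all-gene line at -0.80, and POLQ at 2.28 is the only gene value inside the band.

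Around the members, the neighbours that start near a listed start of a member had activation values of their own in treated over untreated cells. DESI1, beside XRCC6, was at 1.46 in RKO cells at 1.9 µM, and in SW620 cells at -1.88 at 0.38 µM and at -1.45 at 0.5 µM. XRCC6 was at -0.70 in RKO cells, and in SW620 cells at 0.45 at 0.38 µM and at 0.86 at 0.5 µM. The median of all genes was -0.80 in the RKO comparison. ABHD13, beside LIG4, was at -1.99 in RKO cells, and in SW620 cells at -0.60 at 0.38 µM and at 0.43 at 0.5 µM. TMEM167A, beside XRCC4, was at 3.33 in RKO cells, and in SW620 cells at 0.48 at 0.38 µM and at -1.16 at 0.5 µM. The 1 XRCC4 guide that met the count minimum was at 3.43 in RKO cells, and in SW620 cells at -1.11 at 0.38 µM and at -1.65 at 0.5 µM.

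Among the pathway lists with the activation library, TP53BP1 was at -3.85 in treated over untreated RKO cells at 1.9 µM, and in SW620 cells at -2.27 at 0.38 µM and at -3.71 at 0.5 µM. RNF168, a ubiquitin ligase that brings 53BP1 to breaks, was at -5.35 in RKO cells, and in SW620 cells at -1.41 at 0.38 µM and at -2.93 at 0.5 µM. PAXIP1, which binds 53BP1, was at -1.42 in RKO cells, and in SW620 cells at -3.15 at 0.38 µM and at -2.40 at 0.5 µM. These values stand beside medians of all genes of -0.80 in RKO cells, 0.01 at 0.38 µM and 0.00 at 0.5 µM in SW620 cells. The list genes named here and in the next paragraph were picked by these values. Each was past the fold the same way in 2 or more of the 3 comparisons, so that agreement was fixed by the choice. Of the 11 genes of the 53BP1 arm and shieldin, 5 were lower and 3 higher in RKO cells, beside 47.2% and 25.9% of all genes. The list values there ran from -5.35 to 6.33, and the gene at 6.33 is not among those named. Over all genes the 5th and 95th percentiles in RKO cells were -4.58 and 3.37. In SW620 cells 4 were lower and 0 higher at each dose, beside 10.8% and 8.8% of all genes at 0.38 µM and 15.2% and 12.4% at 0.5 µM.

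ATM was at -2.94 in RKO cells, and in SW620 cells at -1.36 at 0.38 µM and at -4.52 at 0.5 µM. All 3 break signalling genes were lower in RKO cells and at 0.5 µM in SW620 cells, where H2AFX was at -1.14 and MDC1, which binds the phosphorylated histone, at -1.72. Of all genes, 47.2% were lower in the RKO comparison and 15.2% in the SW620 one. Of the accessory genes 4 of 9 were lower and 1 was higher in RKO cells, beside the same 47.2% and 25.9%. Among them POLM, a gap-filling polymerase, was at -1.14 in RKO cells and at -1.14 in SW620 cells at 0.5 µM, and APTX, which removes failed ligation products, was at 1.55 in RKO cells and at 1.15 in SW620 cells at 0.38 µM. C7orf49, now named CYREN, was at -1.39 in RKO cells and at 1.02 and 1.26 at the low and high doses in SW620 cells. Of the alternative end joining genes 3 of 7 were lower and 4 higher in RKO cells, also beside 47.2% and 25.9%. There RHNO1 was at 3.30 and the nuclease gene APEX2 at -1.92, and in SW620 cells RHNO1 was at 1.08 at 0.38 µM and APEX2 at -1.28 at 0.5 µM.

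Of the end joining members, PRKDC was past the fold in the same direction in both lines with the activation library, at -1.35 in RKO cells and at -1.10 in SW620 cells at 0.5 µM. In RKO cells all genes had a median of -0.80, and with the scaling of the authors' table PRKDC was at -0.62 and 0 members were lower. Its guides at 0.5 µM held 120, 4 and 439 counts, against 116, 59 and 47 counts in untreated SW620 cells, and ran from -4.13 to 2.01. At 0.38 µM PRKDC was at -0.43.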

How the data were processed

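Guide cassettes were amplified from genomic DNA and sequenced, per the labels' protocols. The authors deposited raw counts per guide in whole numbers for each of the 4 screens. The second deposited table per screen holds a normalized signal, and a check of its values showed that each column is the count column times 1 constant. The submitters' processing notes name cutadapt 4.0 and MAGeCK 0.5.7, with roles not given in the sources used here. The files name no build.

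Counts were scaled by median-ratio size factors with Python 3.11.15, numpy 2.4.6 and pandas 2.3.3. Guide log2 folds used a pseudocount of 5 and a minimum mean scaled count of 20 in the 2 libraries compared. A gene needed 3 guides with the knockout library and 2 with the activation library, and its value is the median over them. Counting intervals at 95% are exact (Poisson for sums, binomial for ratios of sums, scipy 1.17.1), and a count of 0 was given a floor of 3 counts. The calculation was tested on simulated data. Totals ran from 3647823 to 69526489 counts. Columns were matched to samples by name, with 0 left over.

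Comparisons set treated against untreated day 20 and day 0 libraries, untreated day 20 against day 0, 0.5 µM against 0.38 µM in SW620, and RKO minus SW620 guide by guide for the knockout library. With 1 library per condition no test, p-value or standard error was possible. The members and the lists were chosen with earlier results of these data known. All 9 members are named. A list gene is named where it was past the fold the same way in 2 or more of the 3 oxaliplatin comparisons of a screen or in both untreated comparisons, or otherwise had the largest value of its list in a screen. The 3 genes most like a member are the nearest by Euclidean distance, for members at least 2 log2 units from 0. Alternatives were 3 other scalings, another pseudocount, no count minimum, a minimum on the untreated library or on day 0, a mean over guides, and day 0 in place of untreated cells. Results for some list genes are not reported here.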

Additional observations from a re-analysis of the deposited data

Results flagged for a closer look

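XRCC5 drew attention because its knockout values under oxaliplatin had opposite signs in the lines, with 2.64 in RKO cells at 1.9 µM and -2.44 in SW620 cells at 0.5 µM. Each value compares 1 treated with 1 untreated library, the doses differ, and the difference between the lines was not tested. In RKO cells no XRCC5 guide reached a scaled count of 20 in the untreated library. Its guides met the count minimum through the treated library, and its 1 lower guide was left out of the value. In SW620 cells at 0.5 µM 1 guide of XRCC5 held 97.3% of its counts, at 4.16 on the log2 scale, while its lowest guide was at -4.65.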

How the results depend on the processing

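The counts of members past the fold stayed within 1.5 times of the given count in 140 of 164 alternatives, including every alternative of the untreated comparisons. A count of 0 that stayed at 0 is included in that number. Of the untreated comparisons only RKO knockout had members past the fold, so the others say little about stability. Single gene values moved by no more than the counting error of the log2 ratio of their summed counts in 504 of 694. That error belongs to the sum and not to the gene value, which is a median over guides. With total-count scaling, members lower and higher numbered 6 and 1 in RKO knockout cells under drug, 6 and 0 in SW620 knockout cells at 0.5 µM, and 8 and 0 in RKO activation cells, while members lower numbered 3 in SW620 knockout cells and 2 in SW620 activation cells at 0.38 µM. That scaling moved the median of all genes by -1.30 (RKO knockout), -2.02 (SW620 knockout, 0.5 µM), -3.34 (RKO activation), -0.42 and -0.34 (SW620 knockout and activation, 0.38 µM) and -0.52 (SW620 activation, 0.5 µM). Under it DCLRE1C at -0.38 and POLQ at -0.56 in SW620 knockout cells at 0.5 µM, and POLQ at -1.29 in RKO activation cells, turned their sign. Relative to all genes these 3 values stayed positive, at 1.73, 1.56 and 2.85. With non-targeting scaling 1 member was lower in RKO knockout cells under drug, 5 were lower and 1 higher in SW620 knockout cells at 0.5 µM, and 7 were lower and 0 higher in RKO activation cells. That scaling moved all genes by -0.24, -0.95 and -2.17 there, by -0.50 and -0.26 in the untreated RKO and SW620 knockout comparisons, and by -0.25 in SW620 knockout cells at 0.38 µM. The authors' table, which moved all genes by 0.77, left 0 members lower in RKO activation cells. Against day 0, 7 members were lower and 0 higher in RKO knockout cells, with XRCC5 at -2.04 and XRCC6 at -2.49 and thus of opposite sign, and 1 was lower in SW620 activation cells at 0.5 µM. A count minimum on the untreated library left 0 members higher in RKO knockout cells, since it removes both Ku genes. With no minimum 2 members were higher in RKO activation cells and 1 lower in SW620 activation cells at 0.38 µM, where XRCC4 then has a value. With the mean over guides, members lower numbered 1 in RKO knockout cells, 0 at 0.38 µM and 1 at 0.5 µM in SW620 knockout cells, and 1 was higher in SW620 activation cells at 0.5 µM. The mean moved all genes by 0.15 in RKO activation cells. The minimum on day 0 was chosen after seeing the data. The cause was not tested. No paired analysis was possible because each condition has 1 library. The low Ku counts in untreated RKO cells and the depth of the RKO activation library limit these values.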
